A study of Mus musculus with 24 samples.

Results

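The protocadherins are the largest family of cadherin-related adhesion proteins on the surface of neurons. Entries were taken by rule: every protein-coding mouse gene whose symbol begins with Pcdh and that had 10 or more counts in 3 or more of the 24 libraries. This gave 36 of the 37621 gene entries, of which 17915 pass the same count filter. The 36 were 22 genes of the beta cluster, 1 entry each for the alpha and the gamma cluster, and 12 genes outside the clusters. All 36 protocadherin entries present in the tables passed the filter. The GENCODE mouse annotation (release M21) holds 70 genes whose symbol begins with Pcdh, among them the polymorphic pseudogene Pcdhgb8. The other 34 (13 alpha and 21 gamma isoforms, Pcdhgb8 included) were not analysed here. The clusters lie together on chromosome 18, where 26 of the 36 entries are, and the remaining 10 genes lie on chromosomes 3, 5, 10, 14 and X.

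Total RNA depleted of ribosomal RNA was sequenced from dissected cerebellum, cortex, hippocampus and olfactory bulb of C57BL/6 mice. KO libraries came from mice lacking Cdr1as, a neuronal circular RNA known for its many miR-7 sites, and WT libraries came from wild-type mice. There were 3 KO and 3 WT libraries per region, in 8 groups. The labels give neither how the knockout was made nor whether replicates are separate or pooled animals, so p-values measure only the spread between these libraries, which may be technical.

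Clustered protocadherins give each neuron a surface identity. In the alpha and gamma clusters, 1 variable exon is chosen per transcript and spliced to constant exons shared by the whole cluster, while each beta gene is a single-exon gene of its own. The choice is made promoter by promoter with CTCF and cohesin, and matching isoforms on sister branches of a neuron bind and then repel, so that branches avoid each other. Non-clustered protocadherins are fixed products of single genes. The delta-1 group (Pcdh1, Pcdh7, Pcdh9 and Pcdh11x) carries a cytoplasmic motif that binds protein phosphatase 1, and several members of the delta-2 group (Pcdh8, Pcdh10, Pcdh17, Pcdh18 and Pcdh19) bind the WAVE complex, which builds branched actin.

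Gene counts ranged over 5.18 to 30.46 M per library (M, mega), with a median of 16.9 M. Cdr1as had 0 to 13 counts in the 12 KO libraries, against 5617 to 130878 counts in the 12 WT libraries. The summed CPM (counts scaled to the same effective library total) of 7 cerebellum markers was 4930 to 5390 in the 6 cerebellum libraries and at most 167 elsewhere, and that of 7 olfactory bulb markers was 916 to 1023 in the bulb and at most 72.6 elsewhere. Cortex and hippocampus markers were likewise highest in their own region. 3 libraries stood apart with few detected genes (13741 to 16483, against at least 20024 elsewhere) and at most 7.4 M counts: cerebellum KO 1, olfactory bulb KO 2 and olfactory bulb WT 1. The share of reads in no annotated gene also differed, at 52.3% to 62.9% in the olfactory bulb, 53.7% to 61.5% in the cerebellum, 37.0% to 55.4% in the hippocampus and 20.3% to 56.2% in the cortex.

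The 4 regions were first compared in WT. Of 35 protocadherins tested, 27 differed among the regions at an adjusted p under 0.05 in edgeR's quasi-likelihood test, against 59.3% of all 16995 genes tested. The size of the range was compared by description, without a test. The highest region stood over the lowest by a median of 2.02-fold across the 22 beta genes (range 1.23 to 9.15), by 4.78-fold across the 4 delta-1 genes (range 1.71 to 5.67), by 7.87-fold across the 5 delta-2 genes (range 4.2 to 25.3) and by 1.28-fold for the alpha entry and 1.23-fold for the gamma entry. The groups overlapped, since Pcdh9 (1.71) and Pcdh12 (2.11) lay among the beta genes and the sparsely counted Pcdhb1 (9.15) lay above most delta genes. In such dissected tissue, fewer cells of a type and less RNA per cell cannot be told apart.

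In the cerebellum, 15 of the 35 protocadherins were lower and 1 was higher than the mean of the other 3 regions, against 24.1% lower and 22.7% higher over all genes. Of the 12 non-clustered genes, 10 were lower there and Pcdh9 was higher. All 3 WT cerebellum libraries lay below the other 9 WT libraries for 12 of the 35, including 9 of the non-clustered genes, against 13% of all genes tested. In the 12 KO libraries, analysed separately, 14 protocadherins were lower in the cerebellum, against 21.5% of all genes tested, and 12 of the 15 called lower in WT were among them.

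Pcdh8, also called arcadlin, is induced by neuronal activity and draws N-cadherin off the synaptic membrane. It showed the widest range of the tested genes outside the clusters, with 4.09, 1.57 and 1.77 CPM in the WT cerebellum, against 76.2, 27.0 and 43.7 CPM in cortex, 72.9, 57.0 and 58.0 CPM in hippocampus and 36.9, 29.6 and 35.7 CPM in olfactory bulb. No cerebellum library came near any library of another region, while the cortex libraries spread widely. The cerebellum difference was -4.16 ± 0.36 on the log2 scale (SE, adjusted p = 4.43e-07), and in the KO libraries it was -4.95 ± 0.37. The hippocampus was 1.91 ± 0.25 above the other regions (adjusted p = 5.67e-05).

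Pcdh10 and Pcdh7 were high in cortex and olfactory bulb and low in cerebellum. Pcdh10, which recruits the WAVE subunit Nckap1 and is needed for axons to grow through the ventral forebrain, had 343, 346 and 308 CPM in WT cortex and 307, 317 and 337 CPM in WT olfactory bulb, against 112, 156 and 150 CPM in hippocampus and 55.1, 36.7 and 34.9 CPM in cerebellum. The cortex and bulb libraries overlapped each other and lay above all 6 of the other regions. Its log2 difference from the other regions was 1.42 ± 0.13 in cortex (adjusted p = 1.65e-06), 1.38 ± 0.13 in olfactory bulb (adjusted p = 1.36e-06) and -2.53 ± 0.16 in cerebellum (adjusted p = 1.57e-08). Pcdh7, which binds and inhibits protein phosphatase 1, had the same pattern, with 213, 222 and 224 CPM in WT cortex and 224, 220 and 229 CPM in WT bulb, against 91.4, 101 and 124 CPM in hippocampus and 54.0, 35.6 and 33.0 CPM in cerebellum. Pcdh11x, a delta-1 gene of the X chromosome, was the third with this pattern, with 82.8, 67.0 and 69.7 CPM in bulb and 65.3, 68.1 and 62.0 CPM in cortex, against 22.4, 24 and 35.0 CPM in hippocampus and 15.5, 11.6 and 11.5 CPM in cerebellum. For all 3 genes the bulb and cortex libraries overlapped. The cortex difference was 1.15 ± 0.13 for Pcdh7, and the bulb difference was 1.21 ± 0.13 for Pcdh7 and 1.39 ± 0.13 for Pcdh11x.

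Pcdh18, which binds the reelin adaptor Dab1, and Pcdh17, a synaptic organiser of the basal ganglia circuit, were highest in the olfactory bulb. Pcdh18 had 17.2, 19.9 and 20 CPM in the WT bulb, against 12.8, 12.2 and 11.7 CPM in cortex, 7.47, 6.35 and 6.81 CPM in hippocampus and 6.64, 3.7 and 3.24 CPM in cerebellum. The bulb libraries lay apart from all others, by 1.41 ± 0.17 on the log2 scale (adjusted p = 1.94e-05), whereas hippocampus and cerebellum overlapped. Pcdh17 had 260, 195 and 200 CPM in the WT bulb, against 185, 168 and 171 CPM in cortex, 145, 194 and 176 CPM in hippocampus and 56.7, 45.4 and 42.8 CPM in cerebellum. Here the bulb was higher by 0.97 ± 0.12 (adjusted p = 1.47e-05), although bulb library 2 had almost the level of the highest hippocampus library.

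Pcdh15, part of the tip link that opens the transduction channel of inner-ear hair cells, was highest in the olfactory bulb and lowest in the cerebellum. Its 150, 145 and 128 CPM in the WT bulb stood against 36.4, 88.5 and 47.6 CPM in cortex, 25.9, 41.9 and 52.1 CPM in hippocampus and 14.6, 11 and 11.2 CPM in cerebellum. The bulb libraries were all above every other library, with a log2 difference of 2.23 ± 0.22 (adjusted p = 2.17e-06) in WT and 2.21 ± 0.17 in KO. The cerebellum difference was -2.47 ± 0.28 (adjusted p = 6.17e-06) in WT and -2.22 ± 0.22 in KO. Per kilobase of all its annotated exons pooled (23773 bases), the level was 5.94 ± 0.479 CPM per kb in the bulb (SD, n = 3). This value depends on that length, since a single transcript can be shorter. Pcdh15 in cortex was highest in WT library 2, which also had the highest share of reads in no gene among the WT cortex libraries (56.2%), and whether the 2 are linked was not tested.

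The hippocampus led for Pcdh19, Pcdh20 and Pcdh1. Pcdh19, whose human orthologue is mutated in an X-linked epilepsy, had 159, 183 and 175 CPM in WT hippocampus, against 127, 82.6 and 96.6 CPM in cortex, 35.9, 44.3 and 47.0 CPM in olfactory bulb and 20.5, 11.8 and 12 CPM in cerebellum. The 4 regions did not overlap at all in this gene. The hippocampus stood 2.07 ± 0.15 above the rest on the log2 scale (adjusted p = 2.20e-07), and the bulb differed by -0.57 ± 0.18 (adjusted p = 0.0225), while the other 4 delta-2 genes were higher in the bulb. Pcdh20 had 198, 164 and 160 CPM in WT hippocampus and 127, 113 and 107 CPM in bulb, against 52.7, 40.1 and 36.6 CPM in cortex and 23.2, 21.5 and 18.9 CPM in cerebellum. It gave the smallest p of the protocadherins in the test among regions (adjusted p = 2.79e-09), with the hippocampus higher by 1.85 ± 0.11 and the cortex different by -0.81 ± 0.12 (adjusted p = 0.000203). Pcdh1, known as an adhesion protein of airway epithelium and, in human cells, as a receptor for hantaviruses, had 414, 520 and 435 CPM in hippocampus, against 443, 272 and 341 CPM in cortex, 231, 229 and 241 CPM in bulb and 122, 109 and 107 CPM in cerebellum. Hippocampus and cortex overlapped for Pcdh1, although the hippocampus difference of 1.10 ± 0.12 passed the test (adjusted p = 9.78e-06).

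Pcdh9 and Pcdh12 did not share the low cerebellum. Pcdh9 had 253, 326 and 311 CPM in WT cerebellum, against 189, 321 and 242 CPM in cortex, 191, 271 and 268 CPM in hippocampus and 152, 174 and 196 CPM in bulb. The regions overlapped, and the higher level in cerebellum (0.43 ± 0.15, adjusted p = 0.0322) was not called without cerebellum WT 2, cerebellum WT 3 or olfactory bulb WT 1, with differences of 0.37, 0.41 and 0.40, nor with the share of reads in no gene as a covariate (0.23). The lower level in bulb was -0.57 ± 0.16 (adjusted p = 0.0142). In KO libraries the same 2 differences were 0.41 ± 0.11 (adjusted p = 0.00774) and -0.55 ± 0.11 (adjusted p = 0.00229). Pcdh12, an endothelial protocadherin, stayed at or under 1.34 CPM in every WT library and showed no tested regional difference, and its 3 bulb libraries had 0, 0.426 and 0.936 CPM.

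**Figure D1:**
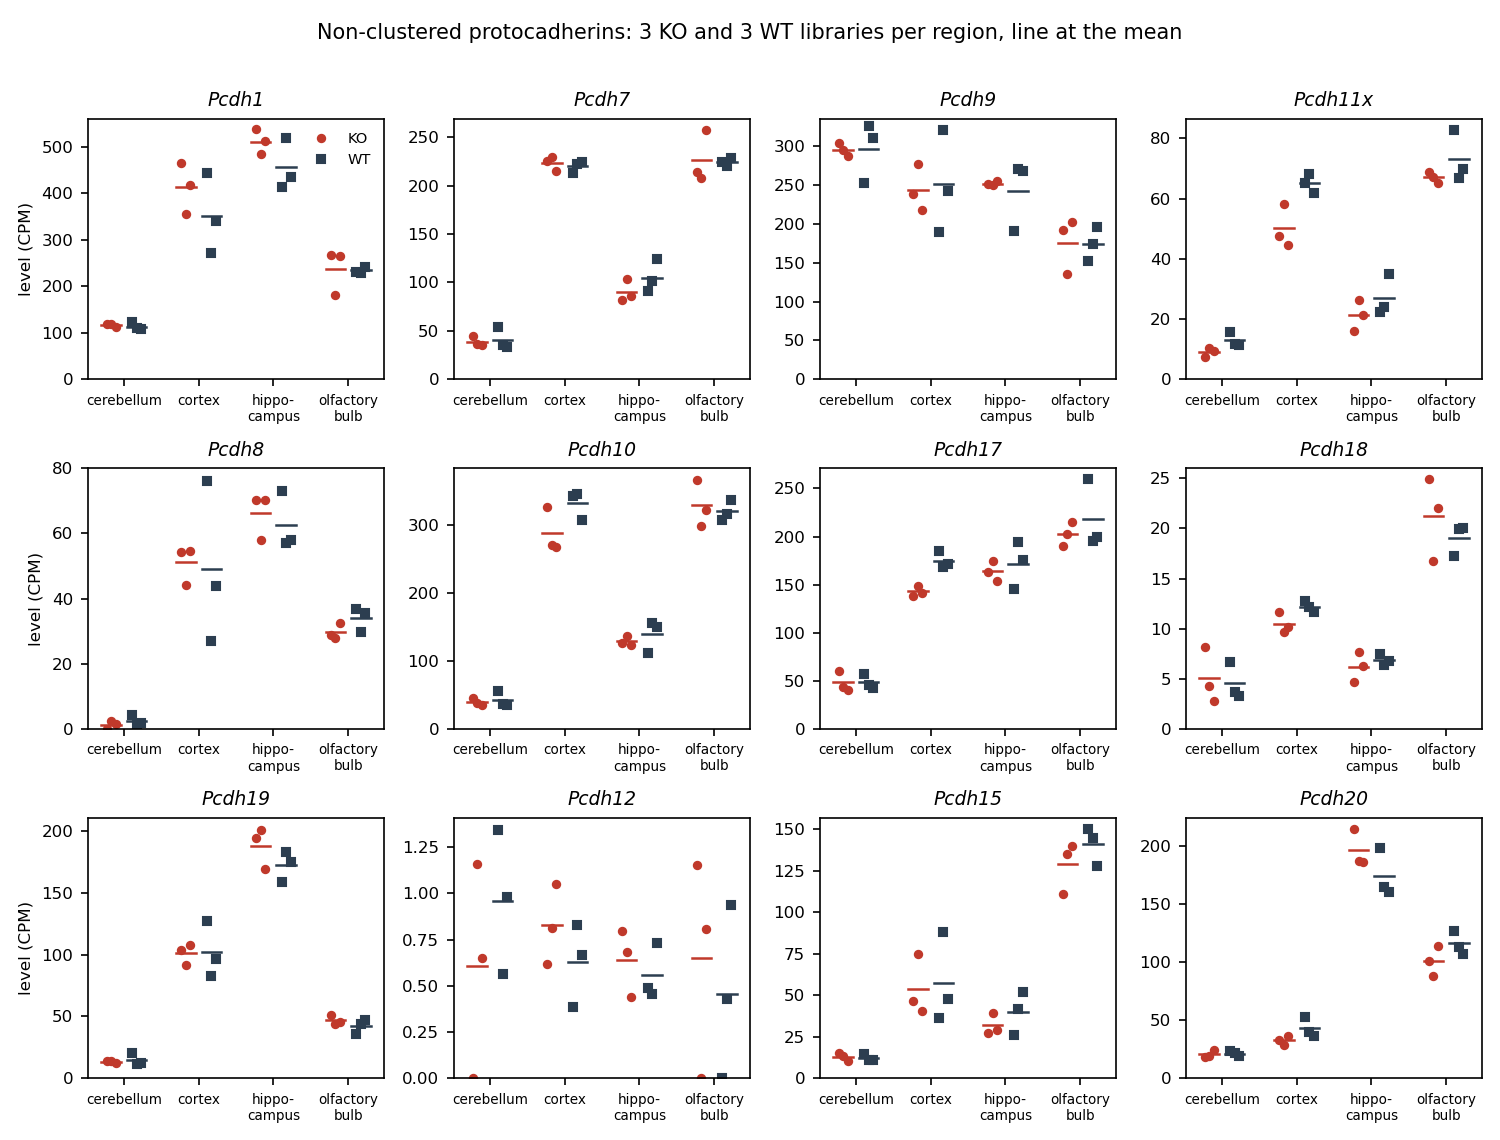
Level in CPM (vertical axes, from 0) of the 12 non-clustered protocadherins in each region (horizontal axes), with 3 KO libraries (circles) left of 3 WT libraries (squares) and a line at each mean. By mean level the cerebellum is the lowest WT region for 10 of the 12 genes, Pcdh9 and Pcdh12 being the exceptions. Those 10 are lowest there in KO libraries too. Pcdh12 also has its lowest KO mean there (0.605 CPM), from 0, 1.16 and 0.652 CPM, the 0 being cerebellum KO 1, a library of low complexity.

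Promoter windows of 4 of these genes are shown, 2 that were high in olfactory bulb and cortex (Pcdh10 and Pcdh18) and 2 that led in hippocampus (Pcdh19 and Pcdh20). Each runs from 250 bases before to 50 after the RefSeq start on GRCm38.p6, 5′ to 3′ on the gene's strand. Capitals mark CGCT or its complement AGCG, the core of the element shared by the promoters of clustered protocadherins, searched on both strands with overlapping matches joined. The windows lie at chr3:45378148-45378447 (plus strand, Pcdh10), chr3:49757267-49757566 (minus strand, Pcdh18), chrX:133688944-133689243 (minus strand, Pcdh19) and chr14:88471347-88471646 (minus strand, Pcdh20).
Pcdh10: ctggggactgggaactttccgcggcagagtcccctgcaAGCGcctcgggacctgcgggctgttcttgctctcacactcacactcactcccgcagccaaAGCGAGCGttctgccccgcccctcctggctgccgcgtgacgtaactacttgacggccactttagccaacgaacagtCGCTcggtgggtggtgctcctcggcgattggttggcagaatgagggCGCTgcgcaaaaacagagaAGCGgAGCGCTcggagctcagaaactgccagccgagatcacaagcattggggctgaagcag
Pcdh18: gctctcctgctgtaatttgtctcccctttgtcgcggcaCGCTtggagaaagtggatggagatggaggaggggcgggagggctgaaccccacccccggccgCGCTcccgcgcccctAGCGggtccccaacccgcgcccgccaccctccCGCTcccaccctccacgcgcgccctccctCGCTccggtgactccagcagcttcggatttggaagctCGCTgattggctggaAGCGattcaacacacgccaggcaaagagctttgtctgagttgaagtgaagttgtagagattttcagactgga
Pcdh19: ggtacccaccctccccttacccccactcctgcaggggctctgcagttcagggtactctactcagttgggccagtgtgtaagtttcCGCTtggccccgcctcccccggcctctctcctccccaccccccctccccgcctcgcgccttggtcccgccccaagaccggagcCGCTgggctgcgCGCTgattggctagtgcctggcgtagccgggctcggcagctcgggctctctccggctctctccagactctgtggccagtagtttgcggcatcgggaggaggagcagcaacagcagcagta
Pcdh20: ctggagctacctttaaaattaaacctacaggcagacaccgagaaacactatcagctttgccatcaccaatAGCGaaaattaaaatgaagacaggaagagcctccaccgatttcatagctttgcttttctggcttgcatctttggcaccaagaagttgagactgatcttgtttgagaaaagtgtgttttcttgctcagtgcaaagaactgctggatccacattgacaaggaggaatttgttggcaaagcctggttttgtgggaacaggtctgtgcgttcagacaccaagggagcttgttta

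Pcdh10 held 8 matches and Pcdh18 held 7, against 3 in Pcdh19 and 1 in Pcdh20. Any match at all is common, since 61.8% of all 32851 mouse promoter windows of this length hold CGCT or AGCG. The windows also differ in CpG number, with 24 in Pcdh10, 23 in Pcdh18, 18 in Pcdh19 and 4 in Pcdh20, against a median of 7 over all windows. The numbers overlapped between genes high in bulb and genes highest in hippocampus. Pcdh7, high in bulb and cortex, and Pcdh17, highest in bulb, held 3 matches each. Pcdh15, highest in bulb, held 4, and Pcdh8, highest in hippocampus, held 5. Pcdh9 held 2, and no window was examined for Pcdh1, Pcdh11x or Pcdh12. These matches describe the letters in each window and were not tested against expression.

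In the olfactory bulb, 25 of the 35 protocadherins were higher and 2 lower than the mean of the other 3 regions in WT, against 18.4% higher and 17.5% lower over all genes. The beta cluster made up most of this, with 17 of 21 tested beta genes called higher and none lower, and a median log2 difference of 0.71. All 21 had a positive difference, between 0.14 and 1.54. The 3 bulb libraries lay above the other 9 WT libraries for 13 of the 21 beta genes, and for 16 of all 35, against 8.57% of genes tested. In the KO libraries 19 of the 35 protocadherins were higher in the bulb, against 14.7% of all genes there, and 18 of the 25 called in WT were among them. By group, 11 of 21 beta genes passed in KO, with a median difference of 0.77.

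Some cell type markers also differed by region. Over all genes, 17.5% were lower and 18.4% higher in WT bulb, and 24.1% were lower in WT cerebellum. Among the WT regions, 2 of 10 endothelial and 2 of 7 mural markers differed, against 59.3% of all genes. Of 6 astrocyte markers, 1 was lower and 0 higher in WT bulb (median -0.03). All 7 oligodendrocyte markers were lower in WT bulb (median -1.37), with a summed level of 1363 to 1593 CPM there, against 3139 to 4429 CPM in the other WT libraries. Of 6 neuron markers, 4 were lower and 1 higher in WT bulb (median -0.70), with a sum of 2614 to 2918 CPM, against 2968 to 5300 CPM in the other WT libraries. In WT cerebellum all 6 microglia markers were lower (median -1.76), with a sum of 52.7 to 68.4 CPM, against 134 to 282 CPM elsewhere, and all 5 oligodendrocyte precursor markers were lower (median -0.90), with a sum of 105 to 138 CPM, against 151 to 342 CPM elsewhere. None of these markers had 0 counts in all WT libraries of a region, although a 0 in a single library was not looked for. Of 9 meningeal fibroblast markers, 4 were higher and 0 lower in WT bulb (median 0.73). The summed level of 9 choroid plexus markers varied widely between libraries, at 38.8 to 2398 CPM in WT hippocampus and 23.3 to 1113 CPM in WT cerebellum. It was 39.6 to 46.4 CPM in KO hippocampus and 253 to 635 CPM in KO cerebellum. The part of any of these lists in the regional or KO comparisons of the protocadherins was not tested.

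Pcdhb6 and Pcdhb16 gave the smallest p of the beta genes among regions (adjusted p = 3.69e-05 and 0.000113). Pcdhb6 had 12.8, 11.6 and 11.5 CPM in the WT bulb, against 3.23, 5.69 and 4.79 CPM in cortex, 3.69, 3.63 and 4.47 CPM in hippocampus and 4.38, 4.38 and 3.54 CPM in cerebellum. The bulb was clear of all other libraries, with a difference of 1.54 ± 0.18 on the log2 scale, and the remaining 3 regions overlapped. Pcdhb16 had 54.9, 44.7 and 43.6 CPM in the WT bulb, against 20.2, 31.3 and 21 CPM in cortex, 17.7, 22.9 and 21.1 CPM in hippocampus and 30.5, 31.1 and 30.9 CPM in cerebellum. Its bulb difference was 0.97 ± 0.13, and its hippocampus difference was -0.70 ± 0.15 (adjusted p = 0.00272).

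The rest of the cluster was less uniform. Pcdhb4, Pcdhb8, Pcdhb7 and Pcdhb18 had bulb differences of 1.19, 1.19, 1.04 and 1.02, while Pcdhb5, Pcdhb14, Pcdhb15 and Pcdhb22 did not pass in the bulb. Pcdhb5 was instead lower in cerebellum, with 3.47, 3.82 and 3.24 CPM, against 6.72, 11 and 6.91 CPM in cortex, 4.83, 7.0 and 8.27 CPM in hippocampus and 6.52, 6.4 and 7.72 CPM in bulb. Pcdhb5 was the 1 beta gene higher in cortex (0.58 ± 0.21, adjusted p = 0.0465), a call lost without cortex WT 2 (0.34) and kept only when cortex WT 1 or hippocampus WT 3 was the library left out. In the cerebellum 5 of 21 beta genes were lower (Pcdhb2, Pcdhb3, Pcdhb5, Pcdhb6 and Pcdhb7), a share near the 24.1% of all genes called lower there, and in KO libraries the 4 called lower were Pcdhb5, Pcdhb7, Pcdhb9 and Pcdhb10. In the hippocampus 6 were lower (Pcdhb6, Pcdhb16, Pcdhb17, Pcdhb19, Pcdhb20 and Pcdhb21), against 10.6% of all genes.

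Levels along the beta cluster are given as a description, with no test. Exon lengths are from GENCODE release M21, while reads were counted on an older gene annotation (Ensembl 67). Levels per kb and their ranks are therefore approximate. Averaged over the WT regions, the 11 genes from Pcdhb1 to Pcdhb11 had a median of 1.79 CPM per kb of exon (range 0.162 to 3.72), against 3.86 CPM per kb (range 1.89 to 9.03) for the 11 from Pcdhb12 to Pcdhb22, and the ranges overlapped. The 9.03 is Pcdhb12 per kb of exon shared with no other gene, and per whole exon length it was 3.29, which makes Pcdhb16 the highest at 5.9 CPM per kb. Pcdhb1 was the lowest, with 0.163, 0.125 and 0.0611 CPM in WT cerebellum and at most 1.4 CPM in any WT library. Pcdhb12 was the highest in the bulb, at 11.3 ± 1.23 CPM per kb of exon shared with no other gene (SD, n = 3), but at 4.12 CPM per kb of its whole exon length. Beta genes resemble each other closely, so reads that align to several of them were not counted for any, and levels of the most similar copies are uncertain.

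The beta sum was 390, 352 and 344 CPM in the WT bulb, against 202, 273 and 215 CPM in cortex, 184, 222 and 220 CPM in hippocampus and 236, 238 and 229 CPM in cerebellum. The bulb libraries all lay above the rest. The high cortex value again belonged to WT library 2. With the share of reads in no gene as a covariate, a fit added after the data were seen, 10 of 21 beta genes were called in the bulb at a median of 0.56, and 18 of all 35 protocadherins were higher and 1 lower. Without olfactory bulb WT 2 the count of beta genes was 12, without WT 3 it was 10, and without WT 1, the library of low complexity, it was 16.

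The alpha and gamma entries were the most abundant clustered entries and had a small range. The gamma entry (ENSMUSG00000023036, named Pcdhgc4) had 742, 763 and 782 CPM in WT cerebellum, 669, 691 and 746 CPM in bulb, 758, 616 and 700 CPM in cortex and 576, 672 and 609 CPM in hippocampus, and passed no regional test. The alpha entry (ENSMUSG00000007440, named Pcdha11) had 250, 228 and 239 CPM in WT cortex, against 227, 189 and 199 CPM in bulb, 193, 198 and 209 CPM in hippocampus and 191, 178 and 188 CPM in cerebellum. Its cortex libraries lay just above all others, with a log2 difference of 0.28 ± 0.08 (adjusted p = 0.0137). Whether each entry sums the transcripts of its whole cluster cannot be read from the tables, so no level per length is given for either. The ratio of the beta sum to the gamma entry was 0.518 ± 0.0616 in WT bulb, against 0.339 ± 0.0928 in cortex, 0.337 ± 0.0221 in hippocampus and 0.308 ± 0.0131 in cerebellum (SD, n = 3 each).

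**Figure D2:**
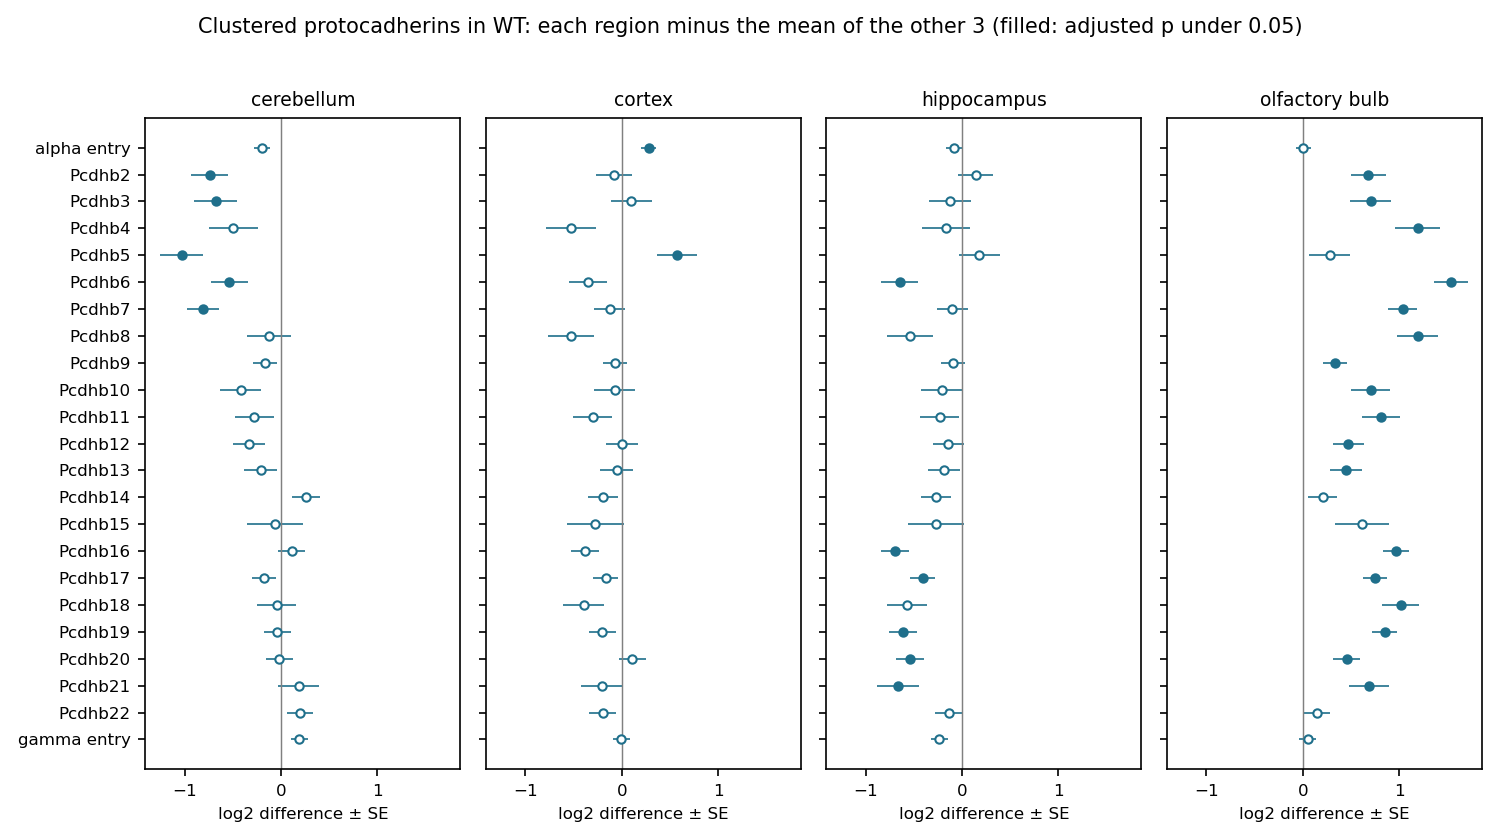
Log2 difference between each WT region and the mean of the other 3 (horizontal axes, bars ± SE) for the alpha entry, 21 beta genes in cluster order and the gamma entry. Filled points passed an adjusted p of 0.05: 17 beta genes are filled and positive in the olfactory bulb, against 1 in the cortex, while 5 in the cerebellum and 6 in the hippocampus are filled and negative.

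**Figure D3:**
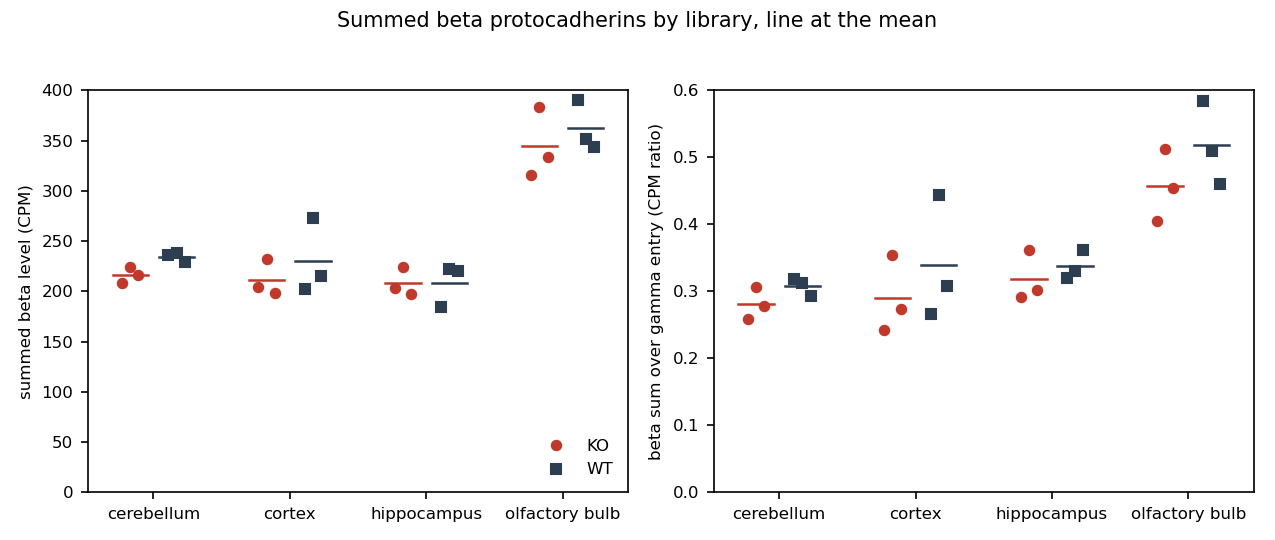
Summed level of the 22 beta genes in CPM (left) and its ratio to the gamma entry (right), with KO libraries (circles) left of WT libraries (squares) in each region and a line at the mean. Every olfactory bulb library, KO or WT, has a beta sum above every library of the other regions. KO and WT points overlap in cortex, hippocampus and bulb on the left, and in every region on the right.

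The calls in cortex, and those higher in hippocampus, fell mostly on non-clustered genes. In WT cortex 10 of 35 protocadherins were higher and 1 lower, against 19.0% higher and 14.5% lower over all genes, and 8 of those higher were delta genes. In WT hippocampus 5 were higher and 8 lower, against 15.3% higher and 10.6% lower over all genes, and the 5 were Pcdh1, Pcdh8, Pcdh17, Pcdh19 and Pcdh20. In the KO libraries all 5 were higher in hippocampus again. Of the 8 lower in WT hippocampus, 2 passed in KO, and all 8 had the same sign there. The total of 13 calls in WT hippocampus was 7 without hippocampus WT 1 and 8 without hippocampus WT 2.

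Genes that act on protocadherins had regional patterns of their own. Of 19 tested regulators of promoter choice (CTCF, cohesin, DNA methylation and chromatin genes), 14 were higher and 1 lower in WT cerebellum, with a median log2 difference of 0.43 beside -0.00 over all genes, of which 22.7% were higher and 24.1% lower. Examples are Ctcf (0.38 ± 0.08, adjusted p = 0.00169), the cohesin subunit gene Rad21 (0.43, adjusted p = 0.00079) and the methyltransferase gene Dnmt3b (1.43, adjusted p = 0.000809). In WT hippocampus 11 of the 19 were lower, against 10.6% of all genes, with a median of -0.34 beside 0.02, and in WT bulb 6 were higher, against 18.4% of all genes, with a median of 0.22 beside 0.01. The bulb calls were Dnmt1, Dnmt3a, Dnmt3b, Rest, Tet1 and Tet3.

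Of 22 partners and processing enzymes, 12 were lower and 4 higher in WT cerebellum, with a median of -0.35 beside -0.00 over all genes, of which 24.1% were lower and 22.7% higher. Ptk2b, a focal adhesion kinase held in check by clustered protocadherins, differed by -5.82 ± 0.21 (adjusted p = 4.92e-11). The WAVE genes Wasf1 (-1.23) and Nckap1 (-0.72) were also lower, while Ret, a receptor kinase that binds protocadherins, was higher (2.07). All 4 immunoglobulin adhesion proteins listed (Dscam, Dscaml1, Sdk1 and Sdk2) were lower in WT cerebellum and higher in WT bulb. Dscam differed by -1.66 ± 0.12 in cerebellum and 0.95 ± 0.10 in bulb. Of 32 other cadherins tested, 16 were lower and 10 higher in WT cerebellum (median -0.41 beside -0.00), against 24.1% lower and 22.7% higher over all genes. In WT bulb 13 were higher and 10 lower (median 0.24 beside 0.01), against 18.4% higher and 17.5% lower over all genes.

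KO was then compared with WT within each region, which asks whether loss of Cdr1as changes protocadherin RNA. No protocadherin passed the test in any region. The count was 0 of 35 in cerebellum, 0 of 35 in cortex, 0 of 35 in hippocampus and 0 of 36 in olfactory bulb. Few genes of any kind passed, at 0.00644% in cerebellum, 0.00634% in cortex, 0.0062% in hippocampus and 0.0253% in olfactory bulb, and the protocadherin counts sit at this background. At an unadjusted p under 0.05, 3 protocadherins were found in cortex, 1 in olfactory bulb, 0 in cerebellum and 0 in hippocampus. In cortex the same-numbered KO and WT libraries correlated, though the labels do not give pairs. There the fit with the replicate block gave 6 at an unadjusted p under 0.05 and 0 past the threshold (smallest adjusted p = 0.189). Its calls over all genes numbered 30, against 1 without the block. With the share of reads in no gene as a covariate, an unadjusted p under 0.05 was found for 8 in cortex and 7 in hippocampus, again with 0 past the threshold. Calls over all genes with this covariate numbered 56 in cortex and 2 in hippocampus. The share of all genes at an unadjusted p under 0.05 is not given here, so none of these unadjusted counts is read as an excess. DESeq2 also called 0 in each region. The median log2 fold change of the protocadherins was -0.08 in cerebellum, -0.10 in cortex, 0.04 in hippocampus and -0.06 in olfactory bulb, beside -0.04, 0.00, -0.02 and -0.01 over all genes.

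Pcdh11x came nearest to a change. It had 47.6, 58.1 and 44.7 CPM in KO cortex, against 65.3, 68.1 and 62.0 CPM in WT cortex, and 7.45, 10.5 and 9.24 CPM in KO cerebellum, against 15.5, 11.6 and 11.5 CPM in WT cerebellum. In both regions every KO library lay below every WT library. Pcdh11x was picked for its small p, and the share of all genes so separated is not given, so the separation is not read as a KO effect. It had 16.0, 26.3 and 21.3 CPM in KO hippocampus, against 22.4, 24 and 35.0 CPM in WT hippocampus, and 68.9, 67.3 and 65.3 CPM in KO bulb, against 82.8, 67.0 and 69.7 CPM in WT bulb, where the groups overlapped. Its log2 fold change was -0.49 (95% interval -1.0 to 0.02) in cerebellum, -0.39 (-0.73 to -0.06) in cortex, -0.35 (-0.84 to 0.14) in hippocampus and -0.13 (-0.40 to 0.14) in bulb, with adjusted p-values of 0.949, 0.858, 0.953 and 0.992. Averaged over regions and tested with limma it was -0.34 ± 0.12 (adjusted p = 0.908), the smallest unadjusted p of the family (0.0141).

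In cortex, Pcdh17 had 138, 149 and 141 CPM in KO, against 185, 168 and 171 CPM in WT, a log2 fold change of -0.31 ± 0.11 (adjusted p = 0.858). Pcdh20 had 32.9, 28.4 and 36.2 CPM in KO cortex, against 52.7, 40.1 and 36.6 CPM in WT cortex, a log2 fold change of -0.43 ± 0.17 (adjusted p = 0.858). KO and WT did not overlap for either gene, though for Pcdh20 the margin was under 1 CPM. Both genes were picked for their small p, so the lack of overlap is not read as a KO effect either. Pcdh10 had 326, 270 and 267 CPM in KO cortex, against 343, 346 and 308 CPM in WT cortex, with overlap, and a fold change of -0.23 ± 0.11. In the hippocampus the sign of Pcdh20 was the other way, with 214, 187 and 186 CPM in KO, against 198, 164 and 160 CPM in WT (0.18 ± 0.11). Pcdh20 had the smallest p of the family for a KO effect that differs among regions (unadjusted p = 0.0611, adjusted p = 1.0), followed by Pcdhb9 (unadjusted p = 0.133).

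Among the beta genes, Pcdhb18 in olfactory bulb had the smallest unadjusted p (0.0436), with a fold change of -0.59 ± 0.25 (adjusted p = 0.992). It had 19.5, 20.9 and 21.8 CPM in KO bulb, against 44.0, 28.0 and 21.5 CPM in WT bulb, so that 1 WT library lay within the KO range. The highest value belonged to WT library 1, the library of low complexity, and without it the fold change was -0.27. Pcdhb9, Pcdh20 and Pcdhb13 followed in bulb (0.40 ± 0.24, -0.20 ± 0.12 and -0.57 ± 0.35), and Pcdhb4, Pcdhb14 and Pcdhb22 in cerebellum (0.89 ± 0.46, -0.45 ± 0.25 and -0.41 ± 0.25). In cerebellum KO 1, a library of low complexity, these 3 genes stood apart from the other KO libraries: Pcdhb4 had 11.5, 4.71 and 4.15 CPM in KO cerebellum, against 4.28, 3.44 and 3.24 CPM in WT cerebellum. Without cerebellum KO 1 the log2 fold changes were 0.27 for Pcdhb4, -0.22 for Pcdhb14 and -0.18 for Pcdhb22. Pcdhb21 (-0.32 ± 0.16) and Pcdh7 (-0.22 ± 0.14) were the nearest others in hippocampus. The beta sum was 208, 224 and 216 CPM in KO cerebellum, against 236, 238 and 229 CPM in WT cerebellum, without overlap. Its ratio to the gamma entry did overlap there, at 0.259, 0.307 and 0.278 in KO and 0.318, 0.312 and 0.293 in WT. In the bulb the beta sum was 316, 383 and 334 CPM in KO, against 390, 352 and 344 CPM in WT, with overlap.

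The alpha and gamma entries had narrow intervals. The alpha entry had 228, 232 and 233 CPM in KO cortex, against 250, 228 and 239 CPM in WT cortex, and the gamma entry had 842, 657 and 722 CPM in KO cortex, against 758, 616 and 700 CPM in WT cortex. Fold changes of the alpha entry lay between -0.07 and 0.05 over the 4 regions, and its 95% intervals had no end below -0.29 or above 0.25. Those of the gamma entry lay between 0.03 and 0.09, with a widest interval of -0.20 to 0.35, in cortex. For many of the other members they were wider. The 95% interval stayed within 1 log2 unit of no change for 22 of 35 protocadherins in cerebellum, 32 of 35 in cortex, 34 of 35 in hippocampus and 28 of 36 in bulb, a limit that corresponds to a 2-fold change either way.

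**Figure D4:**
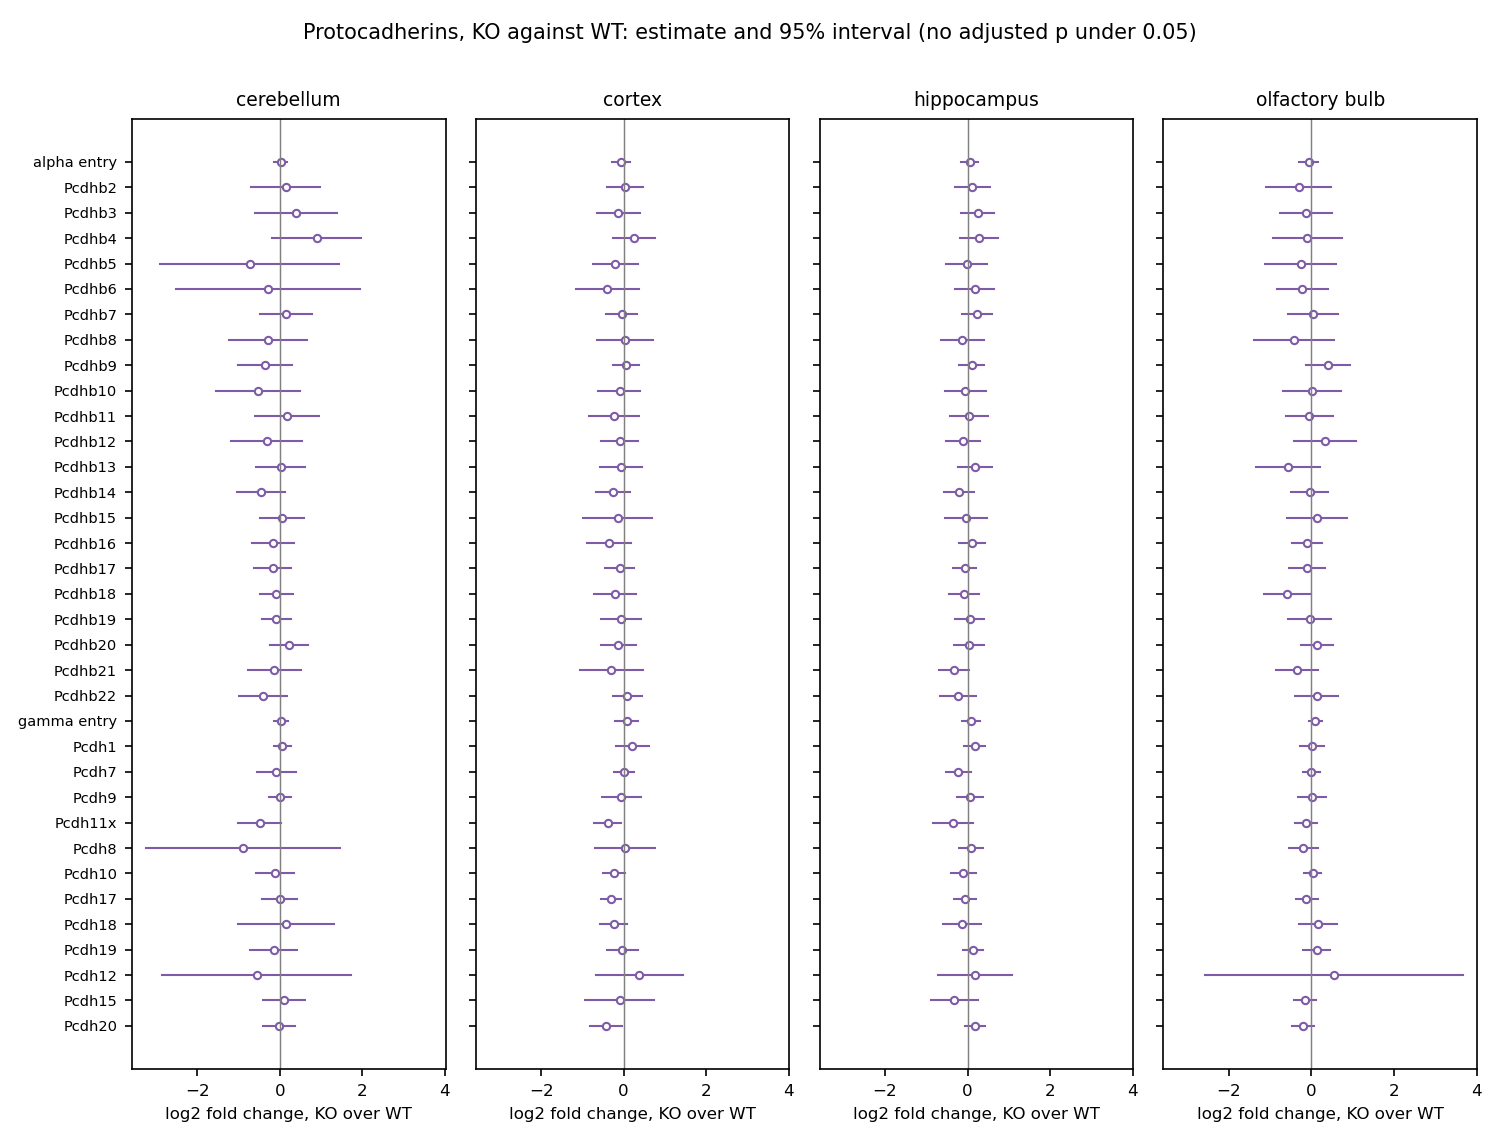
Log2 fold change of KO over WT in each region (horizontal axes) with its 95% interval for the alpha entry, 21 beta genes, the gamma entry and the 12 non-clustered genes. No point passed an adjusted p of 0.05, and the longest bars belong to genes with low counts such as Pcdh12 in bulb, at 0 in 1 library of each genotype there, and Pcdh8 in cerebellum.

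Averaged over regions, 0 of 36 protocadherins passed in limma, against 0.0114% of all genes, and 1 had an unadjusted p under 0.05. With the replicate block, where same-numbered means correlated, 0 passed (smallest adjusted p = 0.705) and 2 had an unadjusted p under 0.05. The calls over all genes numbered 15, against 2 without the block. These unadjusted counts also have no share of all genes beside them and are not read as an excess. Of the 36, 10 had a positive fold change, with a median of -0.09 beside -0.05 over all genes. Pcdhb5 (-0.57 ± 0.30), Pcdhb1 (-0.61 ± 0.34) and Pcdhb14 (-0.25 ± 0.15) came after Pcdh11x. In the test for a KO effect that differs among regions, 0 of 36 passed in edgeR, against 0.00568% of all genes, and none had an unadjusted p under 0.05. Of the 19 regulators, 22 partners and enzymes, up to 32 other cadherins and 4 immunoglobulin proteins tested, none passed in any KO comparison.

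Cdr1as is known to bind miR-7, and the match to the miR-7 seed was looked up in the members. The RefSeq mature sequence (GRCm38.p6, chr7:78888295-78888317, plus strand) is shown with its seed, bases 2 to 8, in capitals, beside the site in the longest 3′ UTR of Pcdh15, with the 7 bases that pair with the seed in capitals.
miR-7a-5p: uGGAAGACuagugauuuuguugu
Pcdh15 site: tgccctctgtggGTCTTCCaaacagtcact

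The heptamer GTCTTCC occurred in the longest 3′ UTR of 3 of the 36 members (Pcdh1, Pcdh15 and Pcdhb6), against 11.9% of 21045 genes with a 3′ UTR. The Pcdh15 site begins at base 3001 of a 3665-base 3′ UTR on chromosome 10. None of the 3 passed a KO test: the fold changes of Pcdh15 were 0.10 ± 0.22 in cerebellum, -0.10 ± 0.37 in cortex, -0.32 ± 0.25 in hippocampus and -0.15 ± 0.12 in bulb. Those of Pcdh1 were 0.06 ± 0.08 in cerebellum, 0.21 ± 0.18 in cortex, 0.17 ± 0.11 in hippocampus and 0.02 ± 0.13 in bulb. Those of Pcdhb6 were -0.29 ± 0.96 in cerebellum, -0.40 ± 0.33 in cortex, 0.17 ± 0.21 in hippocampus and -0.22 ± 0.28 in bulb, so the 3 genes did not share 1 direction. A match is a description of the sequence, and binding was not measured here.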

How the data were processed

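The files deposited by the authors hold raw read counts per Ensembl gene, 1 table per library, for 24 libraries. TRIzol was used for extraction, per the labels' protocols, and the RNA was depleted of ribosomal RNA with RNase H and made into stranded libraries. The submitters' processing notes name bcl2fastq 2.17.1.14, STAR 2.5.1b, HTSeq 0.6.1p1 and the mouse build mm9. Whether HTSeq counted by strand is not given in the sources used here, so reads of overlapping antisense genes may be included. The summary rows of each table (reads in no gene, reads aligned to several places, ambiguous reads) were kept out of library sizes and tests: reads in no gene made up 20.3% to 62.9%, reads without a unique alignment 8.8% to 21.4% and ambiguous reads 0.2% to 0.45%. Gene names and exon lengths come from GENCODE release M21, which named 32898 of the 37621 entries. Its transcripts also gave the sequences searched for the seed match, while promoter windows and the mature miR-7 sequence came from RefSeq.

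KO was compared with WT in each region, and each region with the mean of the other 3 within 1 genotype, with edgeR 4.0.16 (R 4.3.3; TMM scaling, a minimum of 10 counts in filterByExpr, robust quasi-likelihood test). The mean KO effect over regions used limma 3.58.1 on log2 CPM. P-values were adjusted over all genes tested by Benjamini and Hochberg, with a threshold of 0.05. An SE is the log2 difference divided by the square root of the test's F value, and an SD is over 3 libraries. Alternatives were DESeq2 1.42.0, other size factors and filters, 1 fit of all libraries, the replicate block, a covariate for reads in no gene, and each library left out. The members, lists and tests were chosen with earlier results of these data known. Genes named were all non-clustered members, the alpha and gamma entries, the beta genes with the extreme levels per length and the smallest p among regions, and the 4 with the smallest p in each KO comparison. Other beta genes were named after their values were seen.

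Replicate numbers were checked for pairing by the correlation of same-numbered KO and WT libraries around their group means. In cortex (0.104 to 0.532) and for means over regions (0.171 to 0.227) all 3 pairs were over 0.1, and there the blocked fit was read as a paired one. In cerebellum (0.057 to 0.098), hippocampus (-0.176 to 0.017) and olfactory bulb (-0.134 to 0.134) they were not. That reading is uncertain, since the labels do not say that equal numbers mark pairs. Cortex KO 3 correlated more with WT 1 (0.288) than with WT 3 (0.104). Cortex KO 2 and WT 2, at 0.532, also had the highest shares of reads in no gene of their groups (53.75% and 56.19%). Same-numbered libraries of different regions also correlated in some pairs of regions, with all 3 values over 0.1 for WT cerebellum and cortex (0.298 to 0.361), WT cortex and olfactory bulb (0.128 to 0.188) and KO cortex and hippocampus (0.257 to 0.313), but not in the other pairs of regions. The regional tests treat regions as independent samples, with the block as an alternative.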

Additional observations from a re-analysis of the deposited data

How the results depend on the processing

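The KO comparisons called 0 protocadherins in every region, in the mean over regions and in the test among regions, under every alternative run. This held with any 1 library left out (0 to 0) and with the replicate block (0 calls in cortex, where same-numbered libraries correlated, as elsewhere). The smallest adjusted p of any protocadherin in a KO comparison under these alternatives was 0.114, in cortex with the share of reads in no gene as a covariate. WT hippocampus had 13 protocadherins called, the same comparison in the 12 KO libraries had 8 (5 higher and 3 lower), and leaving out 1 WT library gave 7 to 14. The cause was not tested. Leaving out 1 library gave 13 to 17 calls in WT cerebellum, 8 to 12 in WT cortex, 19 to 28 in WT olfactory bulb and 24 to 30 in the test among the 4 regions. Pcdhb13, higher in the WT bulb, had a difference of -0.16 in the KO libraries. The replicate block gave 17 beta genes higher in the WT bulb, as without it, and of 67 single regional calls it lost 1, while DESeq2 lost 0, the covariate lost 13 and the KO libraries failed to call 18 with the same sign. The libraries of 5.18 M counts and upwards limit the low genes first, and the widest 95% half-width of a KO fold change was 3.13 on the log2 scale, for Pcdh12 in olfactory bulb.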
